A study of Oryza sativa with 20 samples.

Results

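Transcript levels of the lamina joint (LJ), the flexible collar that joins a leaf's blade to its sheath, were compared with those of the blade at the stage labelled S3. Both tissues came from the seedlings' first complete leaf in rice (Oryza sativa). The comparison holds the 4 libraries whose labels name S3, 2 of LJ and 2 of blade, of the 20 libraries in the series, which covers both tissues at 5 stages from the forming organ to the set leaf angle. Seedlings of all groups were raised in water under a light and dark cycle, the pieces of both tissues were cut separately, and no treatment or genetic change is named in the labels. The cultivar, the number of seedlings per library and whether replicates came from separate seedlings are not given in the sources used here, so p-values measure only how far these libraries spread, and that spread may be technical.

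The angle between a rice leaf and its stem is set by the lamina joint, where cells on the upper and lower sides divide, elongate and thicken their walls to different degrees. Brassinosteroids promote bending of the joint, in part through small helix-loop-helix proteins such as BU1 that counteract inhibitors such as IBH1, and auxin and gibberellin act on the same tissue. The ligule region forms where LG1 is active. The blade, in contrast, grows by division and elongation at its base and then matures into photosynthetic tissue.

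Levels are given in FPKM, a fragment count scaled by transcript length and library size, for replicate 1 and then replicate 2 of a tissue. Differences are LJ minus blade on the log2(FPKM + 1) scale with the standard error (SE) of the limma fit, which understates the change of weakly expressed genes. Genes with a limma p under 0.05 after Benjamini-Hochberg adjustment over the 26403 genes tested are referred to as called. The 4 libraries summed to 934536 to 1026498 FPKM and listed 20618 to 21695 genes at 1 FPKM or more. Across genes the replicates correlated at 0.963 in both tissues, and LJ with blade libraries at 0.858 to 0.926. The read depth behind the values is unknown. The tissue labels were checked against markers. LG1 stood at 13.4 and 10.9 FPKM in LJ against 3.34 and 3.80 in blade, and the small subunit of Rubisco, RBCS2, at 401 and 138 in LJ against 2175 and 1428 in blade. The 5 KNOX genes of meristem cells summed to 0.575 and 0.779 FPKM in LJ and to 0.0840 and 0.154 in blade, with OSH1 and OSH15 at 0 in 3 of the 4 libraries.

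At S3 the LJ carried more transcript of the cell division machinery, of YABBY and boundary regulators and of growth-regulating factors than the blade, and less of 3 of 5 Calvin cycle loci, calls that were lost without replicate 2 of LJ or replicate 1 of blade. Of all tested genes 16.9% were called (4471), 11.2% higher in LJ (2948 genes) and 5.77% lower (1523 genes), and 3374 of them differed by at least 2-fold. Of 206 tested loci with a checked name, 42 were called higher and 15 lower, and 149 were not called. In each of the 4471 called genes the LJ and blade libraries did not overlap, which held for 39.1% of all tested genes with LJ above and 22.2% with LJ below. With the libraries paired by replicate number, 37.0% of tested genes were called, 23.2% higher and 13.9% lower (9777 genes, 4469 of the 4471 among them). The named loci then split into 58 higher, 43 lower and 105 not called. In this paired fit all 5 Calvin cycle loci were called lower and all 14 cell cycle loci higher. The fits with 1 library left out did not use these pairs. Counts for the lists below stand beside 11.2% and 5.77%, and those with pairing beside 23.2% and 13.9%.

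The median difference over all tested genes was 0.17, and it was 0.06 after upper quartile scaling and 0.04 after quantile normalization, and the differences given here stand against this median. Among called genes, 65.9% were higher in LJ, against 55.8% and 54.8% after these scalings. Replicate 2 of LJ and replicate 1 of blade decided many calls: without the former 1431 genes were called, with 31 named loci higher and 4 lower, and without the latter 1406 genes, with 28 named loci higher and 3 lower. When only the 4 libraries of S3 were fitted, 974 genes were called, with 15 named loci higher and 4 lower. Both directions of difference were found at all levels of expression: with the tested genes split evenly by mean level into low, middle and high, 911, 1171 and 866 were higher and 531, 554 and 438 lower in LJ. Complete switches were few. Only 18 gene IDs were at 5 FPKM or more in both LJ libraries and under 0.5 in both blade libraries, and 14 showed the opposite pattern.

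**Figure D1:**
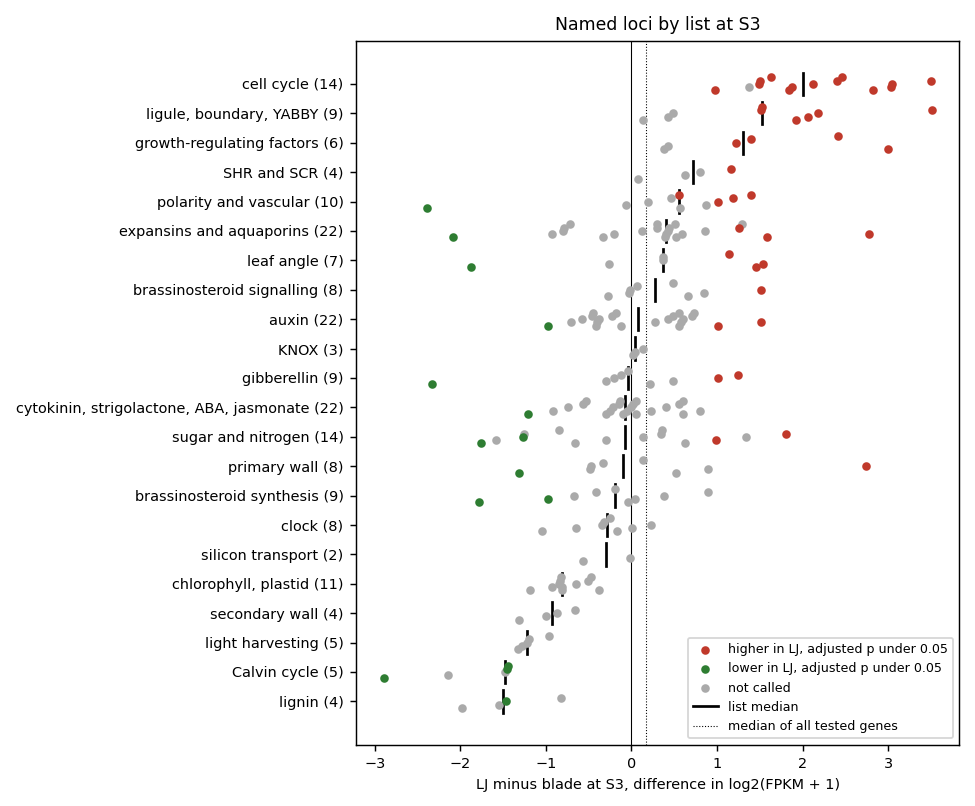
Difference between LJ and blade at S3 in log2(FPKM + 1) for the 206 tested named loci, 1 point per locus, grouped in 22 lists with the number tested in brackets. The cell cycle list has the highest median, 2.00, and the lignin list the lowest, −1.50, and the dotted line is the median of all tested genes, 0.17.

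Transcripts of the division machinery were higher in the LJ. Of 14 cell cycle loci, 13 were called higher in LJ, none was called lower, and the 2 LJ libraries lay above the 2 blade libraries at all 14, with a median difference of 2.00. PCNA (OS02G0805200), the sliding clamp of DNA replication, was at 17.2 and 41.5 FPKM in LJ, against 1.01 and 2.03 in blade. Its difference was 3.50 ± 0.57 (adjusted p = 0.0011), and its LJ libraries differed from each other more than its blade libraries did. The mitotic cyclin CYCB1;1 (OS01G0805600), which drives entry into division, was at 22.9 and 29.1 FPKM in LJ, against 1.85 and 2.70 in blade (3.05 ± 0.26, adjusted p = 1.6e-05). CDKB2;1, a plant-specific mitotic kinase, was at 25.9 and 37.6 FPKM against 1.96 and 4.20 (3.04 ± 0.39, adjusted p = 0.00022).

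The remaining members of the list, named here after their values were seen, took the same direction. The mitotic cyclins CYCB2;2 and CYCB2;1 differed by 2.82 ± 0.28 and 2.46 ± 0.32 and the kinase CDKB1;1 by 2.41 ± 0.30. The 6 subunits of the MCM helicase, which opens DNA for replication, were all called, from MCM3 (3.42 and 5.88 FPKM in LJ, 0.268 and 0.264 in blade, 2.12 ± 0.33) down to MCM5 (1.58 and 2.83 against 0.0733 and 0.167, 1.49 ± 0.24). In blade none of the 6 reached 0.3 FPKM, while in LJ each was above 1.5. The member not called was CYCD4;1, a D-type cyclin of entry into the cycle, at 13.1 and 22.3 FPKM in LJ and 4.40 and 7.97 in blade (1.38 ± 0.50, adjusted p = 0.073, and 0.0027 with pairing). KRP1, which inhibits cyclin-dependent kinases and so does the opposite of the rest, was also higher in LJ, at 91.8 and 94.6 FPKM against 49.1 and 44.7 (0.98 ± 0.29, adjusted p = 0.036).

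The count of 13 was 12 without replicate 1 of LJ, 11 without replicate 2 of LJ and 12 without either blade library. KRP1 lost its call when any of the 4 libraries was left out (adjusted p between 0.093 and 0.17) and after either scaling, and MCM2 did without replicate 2 of LJ (1.40, adjusted p = 0.059). Summed over PCNA, the MCM subunits and the mitotic cyclins and kinases, the 12 markers of dividing cells came to 118 and 182 FPKM in LJ and 10.1 and 15.8 in blade. In such bulk tissue, fewer cells of a type and less RNA per cell cannot be told apart.

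**Figure D2:**
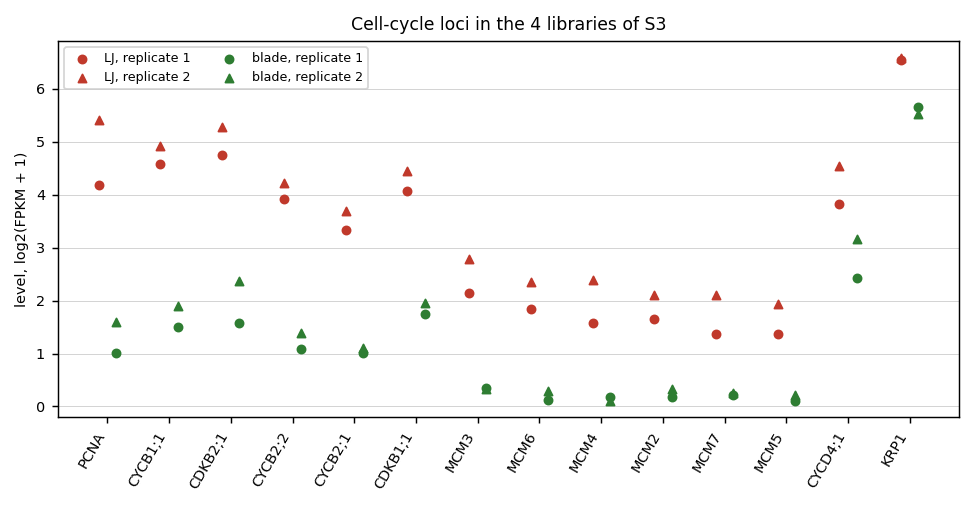
Levels of the 14 cell cycle loci in the 4 libraries of S3, in log2(FPKM + 1), with circles for replicate 1 and triangles for replicate 2. At every locus both LJ points lie above both blade points, and PCNA has the largest difference, 3.50.

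Regulators of the blade-sheath boundary and of lateral organs were also higher in the LJ. Of 9 tested loci, 6 were called higher and none lower, with a median of 1.52. TOB1 (OS04G0536300), a YABBY transcription factor, was at 18.6 and 15.6 FPKM in LJ, against 0.531 and 0.625 in blade. Its difference, 3.51 ± 0.25 (adjusted p = 4.8e-06), was the largest among the named loci, and its replicates were close together in each tissue. YAB4 was at 5.45 and 5.64 FPKM against 0.353 and 0.532 (2.19 ± 0.26, adjusted p = 0.00011). BOP2 (OS11G0141900), a BLADE-ON-PETIOLE gene of the kind that promotes sheath identity in rice, was at 2.86 and 3.92 FPKM against 0 and 0.0791 (2.07 ± 0.33, adjusted p = 0.0010).

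YAB2 was at 24.3 and 21.0 FPKM against 6.25 and 4.38 (1.92 ± 0.33, adjusted p = 0.0015), and DL, the YABBY factor required for the midrib, at 5.38 and 5.47 against 1.72 and 0.841 (1.52 ± 0.30, adjusted p = 0.0038). LG1 differed by 1.52 ± 0.27 (adjusted p = 0.0017). The tissues did not overlap at any of these 6 loci, and the 6 calls held without any 1 library. YAB3 (2.53 and 2.30 against 1.63 and 1.25 FPKM), YAB6 (33.6 and 22.6 against 18.0 and 22.7) and YAB1 (49.6 and 53.8 against 48.3 and 45.8) were not called. BOP3, at 0.276 and 0.196 FPKM in LJ and listed at 0 in blade, was too low to be tested.

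Of 6 growth-regulating factors (GRF), transcription factors that sustain division in young leaves, 4 were called higher in LJ and none lower, with a median of 1.31. GRF10 (OS02G0678800) was at 20.4 and 35.8 FPKM in LJ, against 1.63 and 3.67 in blade (3.00 ± 0.45, adjusted p = 0.00056). GRF6 was at 11.2 and 17.4 FPKM against 1.38 and 2.32 (2.41 ± 0.32, adjusted p = 0.00025). At both loci replicate 2 was the higher library in either tissue, and the tissues did not overlap. GRF4 (7.66 and 7.61 against 1.92 and 2.70 FPKM) and GRF3 (37.4 and 41.9 against 13.3 and 20.1) differed by 1.39 ± 0.28 and 1.23 ± 0.37 (adjusted p = 0.0047 and 0.037). GRF1 (3.41 and 6.31 against 2.42 and 4.19 FPKM) and GRF8 (0.321 and 1.03 against 0.212 and 0.302) were not called. GRF3 was not called without either LJ library (adjusted p = 0.083 and 0.19) or without replicate 1 of blade (0.28), and GRF4 was not without the last (0.064). The dividing-cell markers were also higher in LJ at S3, and their part in the differences of the YABBY, boundary and GRF loci was not tested.

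Of 7 loci with known roles in leaf or tiller angle and plant architecture, 3 were called higher in LJ and 1 lower. BU1 (OS06G0226500), the helix-loop-helix protein induced by brassinosteroid that promotes joint bending, was at 27.3 and 23.3 FPKM in LJ, against 6.57 and 9.74 in blade (adjusted p = 0.00067). IBH1 (OS04G0660100), the helix-loop-helix inhibitor of this pathway, lay on the other side, at 9.61 and 4.09 FPKM in LJ and 32.7 and 20.4 in blade (−1.87 ± 0.38, adjusted p = 0.0047). Activator and inhibitor therefore had opposite orders between the tissues, each without overlap. IBH1 was not called without replicate 2 of LJ (−1.34, adjusted p = 0.082) or replicate 1 of blade (−1.54, adjusted p = 0.073).

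CYCU4;1 (OS10G0563900), a U-type cyclin that acts on the proliferation of sclerenchyma cells on the lower side of the joint, was at 139 and 125 FPKM in LJ, against 41.7 and 53.4 in blade (adjusted p = 0.0024). SPL14, an SBP-domain regulator of plant architecture, was at 4.53 and 4.96 FPKM against 1.43 and 1.77 (1.14 ± 0.22, adjusted p = 0.0029). The libraries of each tissue were close together at both loci. SPL16 (1.23 and 2.00 against 0.606 and 1.48 FPKM) and the gravitropism gene LAZY1 (28.2 and 18.0 against 36.7 and 20.1) overlapped between tissues and were not called. TAC1, a gene of tiller angle, was at 1.40 and 1.37 FPKM against 0.735 and 0.958 (0.37 ± 0.14, adjusted p = 0.073, and 0.039 with pairing).

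**Figure D3:**
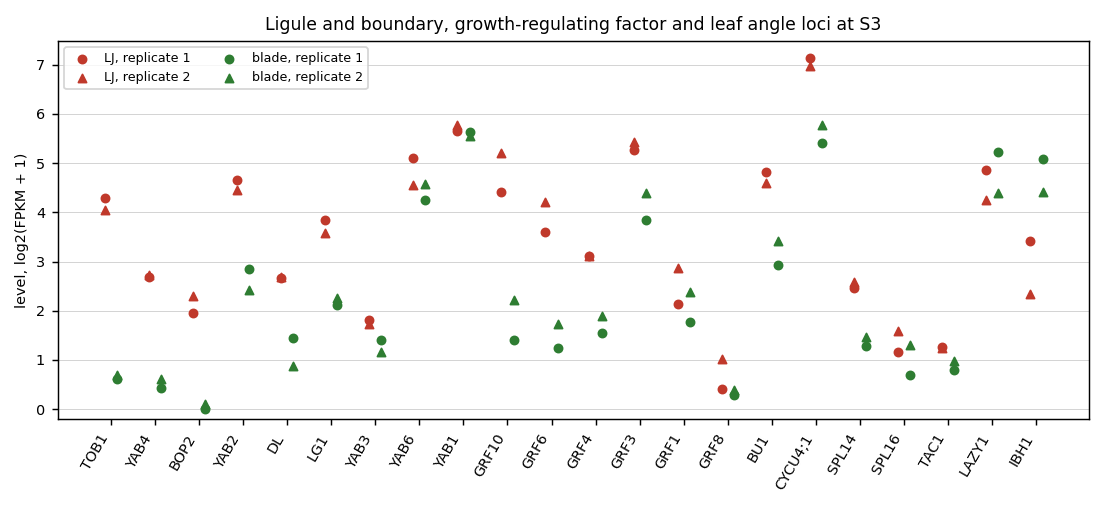
Levels in log2(FPKM + 1) of the tested ligule and boundary loci (TOB1 to YAB1), growth-regulating factors (GRF10 to GRF8) and leaf angle loci (BU1 to IBH1) in the 4 libraries of S3. IBH1, at 9.61 and 4.09 FPKM in LJ, is the only locus here with both LJ points below both blade points.

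Among 10 loci of leaf polarity, width and vascular development, 4 were called higher and 1 lower. The exception was HB5 (OS01G0200300), a class III homeodomain-leucine zipper (HD-ZIP III) factor. It was at 0.131 and 0.287 FPKM in LJ, against 6.33 and 4.43 in blade (−2.39 ± 0.21, adjusted p = 1.6e-05). Its relatives HB3 (16.5 and 22.6 against 4.65 and 9.56 FPKM, 1.40 ± 0.37, adjusted p = 0.020) and HB4 (24.9 and 25.4 against 10.0 and 14.3, 1.01 ± 0.23, adjusted p = 0.0096) were higher in LJ. The family of factors that mark the upper leaf side thus had members on both sides of the comparison, and the low level of HB5 in LJ was shared by both libraries. HB1 (30.1 and 37.5 against 19.8 and 25.3 FPKM, 0.56 ± 0.23, adjusted p = 0.099, and 0.021 with pairing) and HB2 (49.1 and 47.2 against 37.6 and 47.0) were not called.

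RL9, a KANADI-type factor of the lower leaf side, was at 4.01 and 4.10 FPKM in LJ, against 0.886 and 1.61 in blade (1.19 ± 0.27, adjusted p = 0.0087). WOX4, a homeobox gene of vascular and meristem cells, was low everywhere, at 0.664 and 0.430 FPKM against 0 and 0.0953 (0.56 ± 0.17, adjusted p = 0.041). NAL1, needed for leaf width, AGO7, of the small RNA pathway that patterns polarity, and the epidermal factor ROC5 were not called, and NAL1 was higher with pairing (0.87 ± 0.36 without pairing, adjusted p = 0.10, and 0.017 with it). The calls of HB3, HB4 and RL9 were lost without replicate 2 of LJ (adjusted p = 0.17, 0.074 and 0.067) and without replicate 1 of blade (0.23, 0.13 and 0.11), and that of WOX4 without any 1 library (0.075 to 0.24). Of 4 SHR and SCR loci, which pattern the ground tissue, SHR1 was higher in LJ, at 7.61 and 9.52 FPKM against 3.67 and 2.88 (1.16 ± 0.23, adjusted p = 0.0043, and 0.060 without replicate 2 of LJ). SCR2 (21.6 and 32.9 against 12.8 and 17.2 FPKM), SCR1 (8.97 and 19.4 against 6.53 and 10.3) and SHR2 (5.30 and 7.74 against 5.47 and 6.61) were not, although SCR2 was with pairing (adjusted p = 0.013).

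Of 22 tested expansins and aquaporins, genes of wall loosening and water uptake, 3 were called higher and 1 lower in LJ, beside 11.2% and 5.77% of all tested genes, 11 overlapped between tissues, and the median was 0.40. EXPA1 (OS04G0228400), an expansin that loosens cell walls, was at 13.6 and 10.9 FPKM in LJ, against 1.06 and 0.793 in blade (2.77 ± 0.56, adjusted p = 0.0042). EXPA16 was at 5.67 and 3.54 FPKM against 0.886 and 0.778 (1.59 ± 0.19, adjusted p = 0.00015), and EXPA10 at 18.2 and 17.2 against 5.99 and 7.81 (1.25 ± 0.27, adjusted p = 0.0059, and 0.077 without replicate 1 of blade). These 3 belong to the alpha expansins, while limma called none of the 6 tested beta expansins (0 at an unadjusted p under 0.05). Not all alpha expansins were called. EXPA2 (22.4 and 18.0 against 31.2 and 49.1 FPKM) lay lower in LJ and EXPA4 (124 and 75.9 against 67.9 and 76.3) overlapped, and neither was called. PIP2;7, a plasma membrane water channel, was at 0 and 0.0340 FPKM in LJ, against 4.14 and 2.62 in blade (adjusted p = 0.0043, and 0.061 without replicate 1 of blade). The abundant water channels overlapped or nearly so, PIP2;1 at 2545 and 1587 FPKM in LJ and 1678 and 1313 in blade among them. With pairing 5 of the 22 were higher and 2 lower, the added loci being EXPA5 (7.88 and 26.2 against 2.63 and 10.1 FPKM, adjusted p = 0.13, and 0.011 with pairing), the water channel TIP2;2 (0.30, and 0.040 with pairing) and PIP2;2 (119 and 42.0 against 173 and 79.5 FPKM, 0.72, and 0.043 with pairing).

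Of 8 primary wall synthases, 1 was called higher and 1 lower, beside 11.2% and 5.77% of all tested genes. CSLD4 (OS12G0555600), a cellulose synthase-like gene needed for leaf width, was higher, at 10.5 and 17.2 FPKM in LJ and 1.06 and 1.27 in blade (2.74 ± 0.45, adjusted p = 0.0011). CESA3 was lower, at 55.7 and 39.5 FPKM against 115 and 122 (adjusted p = 0.039), a call that was lost without any 1 library (0.057 to 0.26). CSLD2 (11.3 and 9.58 against 4.55 and 5.77 FPKM) was not called, and was with pairing (adjusted p = 0.046). The cellulose synthases CESA1, CESA5, CESA6 and CESA8 and the mixed-linkage glucan synthase CSLF6 had differences from −0.49 (CSLF6) to 0.52 (CESA5) and were not called either way.

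The secondary wall and lignin loci with a checked name lay on the blade side. All 4 secondary wall loci had both LJ libraries below both blade libraries, but limma called none of them (1 at an unadjusted p under 0.05), and with pairing 2 were called lower. CESA9 was at 9.96 and 5.09 FPKM in LJ, against 23.0 and 16.2 in blade (−1.31 ± 0.46, adjusted p = 0.063, and 0.0045 with pairing), and CESA4 at 50.5 and 25.9 against 75.2 and 71.0 (−0.99 ± 0.51, adjusted p = 0.19, and 0.011 with pairing). CESA7 (89.7 and 35.6 against 118 and 92.6 FPKM) and BC1, a COBRA-like wall protein (8.92 and 4.81 against 11.1 and 10.9), were not called in either fit. Of 4 lignin enzymes, CAD2, a cinnamyl alcohol dehydrogenase, was called lower, at 29.3 and 18.6 FPKM against 67.8 and 64.7 (−1.46 ± 0.37, adjusted p = 0.016).

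With pairing all 4 lignin loci were lower. COMT1, a methyltransferase of lignin monomers, was at 246 and 104 FPKM against 737 and 545 (−1.98 ± 0.74, adjusted p = 0.081, and 0.00019 with pairing). The ligases 4CL3 (25.2 and 11.1 against 62.5 and 41.6 FPKM) and 4CL4 (21.8 and 12 against 33.1 and 26.4) had paired adjusted p of 0.00077 and 0.0069. At all 8 loci of both lists replicate 2 was the lower library in each tissue. CAD2 was not called without replicate 2 of LJ (adjusted p = 0.17) or without replicate 1 (0.10) or 2 (0.051) of blade.

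Photosynthesis loci with a checked name lay on the blade side, and for most of them the call depended on the pairing. Of 5 Rubisco and Calvin cycle loci, 3 were called lower and none higher, with a median of −1.48, and all 5 had LJ below blade without overlap. RBCS2 differed by −2.90 ± 0.72 (adjusted p = 0.014). RPE, a pentose phosphate epimerase, was at 82.1 and 53.2 FPKM against 212 and 155 (−1.44 ± 0.37, adjusted p = 0.016), and FBP1, a fructose bisphosphatase, at 174 and 86.4 against 464 and 246 (−1.45 ± 0.46, adjusted p = 0.043). The chloroplast aldolase FBA1 (846 and 399 against 2259 and 1159 FPKM, −1.48 ± 0.60) and Rubisco activase RCA (251 and 60.1 against 1081 and 276, −2.14 ± 0.99) had adjusted p of 0.11 and 0.15, and of 0.00091 and 8.2e-05 with pairing. The calls of RBCS2, RPE and FBP1 were lost without replicate 2 of LJ (adjusted p = 0.17, 0.17 and 0.35) and without replicate 1 of blade (0.13, 0.15 and 0.34). Near-identical copies of such genes can share reads, so single loci of these families are uncertain.

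None of 5 light-harvesting and photosystem loci was called by limma (2 lower at an unadjusted p under 0.05), and all 5 were lower with pairing, with a median of −1.22. LHCB2, a chlorophyll-binding antenna protein, was at 4792 and 1550 FPKM in LJ, against 11111 and 3938 in blade (−1.28 ± 1.06, adjusted p = 0.44, and 0.015 with pairing). Replicate 1 of LJ was above replicate 2 of blade, so the groups overlapped, while within each replicate number LJ was below blade. PSAH, a subunit of photosystem I, was at 1283 and 765 FPKM against 2912 and 2135 (−1.33 ± 0.54, adjusted p = 0.10, and 0.00064 with pairing). The other loci of this list were LHCB1.2, LHCB1.3 and PSBQ, a subunit of the oxygen-evolving complex. Of 11 loci of chlorophyll synthesis and chloroplast regulation, none was called by limma (3 lower at an unadjusted p under 0.05) and 7 were lower with pairing, with a median of −0.81. The largest of these differences was that of HEMA1, an enzyme of early tetrapyrrole synthesis, at 11.1 and 5.01 FPKM against 22.3 and 15.2 (−1.19 ± 0.66, adjusted p = 0.23, and 0.0055 with pairing). The 7 were CHLH, CHLD, CHLI, GSA, DVR, HEMA1 and the regulator GLK1, and the other 4, GLK2, YGL1, PORA and PORB, had differences of −0.38 to −0.81.

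Of 14 loci of sugar, starch, photorespiration and nitrogen metabolism, 2 were called higher and 2 lower, beside 11.2% and 5.77% of all tested genes. CIN2 (OS04G0413500), a cell wall invertase that splits imported sucrose, was at 72.1 and 84.4 FPKM in LJ, against 19.0 and 24.3 in blade (1.81 ± 0.26, adjusted p = 0.00041). GLO1, the glycolate oxidase of photorespiration, was at 26.6 and 23.1 FPKM against 81.6 and 90.8 (−1.76 ± 0.32, adjusted p = 0.0021). Both separated the tissues by far more than the replicates. SUT1, a sucrose transporter of phloem loading, was lower in LJ, at 7.39 and 3.26 FPKM against 15.1 and 11.9 (−1.27 ± 0.34, adjusted p = 0.021, but 0.26 without replicate 2 of LJ and 0.17 without replicate 1 of blade). The starch synthase SSI was higher, at 4.25 and 4.75 FPKM against 1.83 and 1.72 (0.99 ± 0.27, adjusted p = 0.023), and lost its call without any 1 library (0.057 to 0.14) and after either scaling. With pairing 3 were higher, the sucrose synthase SUS1 (951 and 1034 against 308 and 501 FPKM, adjusted p = 0.018) joining them, and 6 were lower, with GS2, Fd-GOGAT and GS1;2 of ammonium assimilation (paired adjusted p = 0.00023, 0.0060 and 0.013) and GDCH of photorespiration (0.039) as the added loci.

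The libraries of S3 also differed by replicate number, in both tissues alike. LHY (OS08G0157600), a morning-phased transcription factor of the circadian clock, reached 291 FPKM in the LJ library numbered 1 and 302 in the blade library numbered 1, and 5.09 and 8.10 in those numbered 2. LUX, an evening-phased clock gene, had the opposite order, at 2.67 and 6.43 FPKM in replicate 1 of LJ and blade and 91.8 and 196 in replicate 2. GI, another clock gene, was at 11.5 and 20.5 FPKM in replicate 1 and 75.7 and 108 in replicate 2. The gap between numbers at these loci was larger than that between tissues. PRR1 and PRR95, pseudo-response regulators of the clock, also stood higher in both libraries numbered 2, PRR95 at 51.4 and 81.0 FPKM there and at 25.5 and 23.0 in those numbered 1.

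None of 8 clock loci was called between the tissues by limma (0 at an unadjusted p under 0.05), and with pairing LUX (−1.05 ± 2.32 without pairing, adjusted p = 0.80, and 0.0016 with it) and GI (−0.65 ± 1.06, adjusted p = 0.72, and 0.030 with pairing) were lower in LJ. PRR37, PRR73 and ELF3 differed little between numbers, PRR73 standing at 15.5 and 14.2 FPKM in LJ and 19.2 and 19.1 in blade. The photosynthetic markers RBCS2, LHCB1.2, LHCB1.3 and LHCB2 summed to 10683 and 4147 FPKM in LJ and to 25968 and 10331 in blade, higher in replicate 1 of both tissues. The part of the replicate number in each difference between the tissues was not tested beyond the paired fit.

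**Figure D4:**
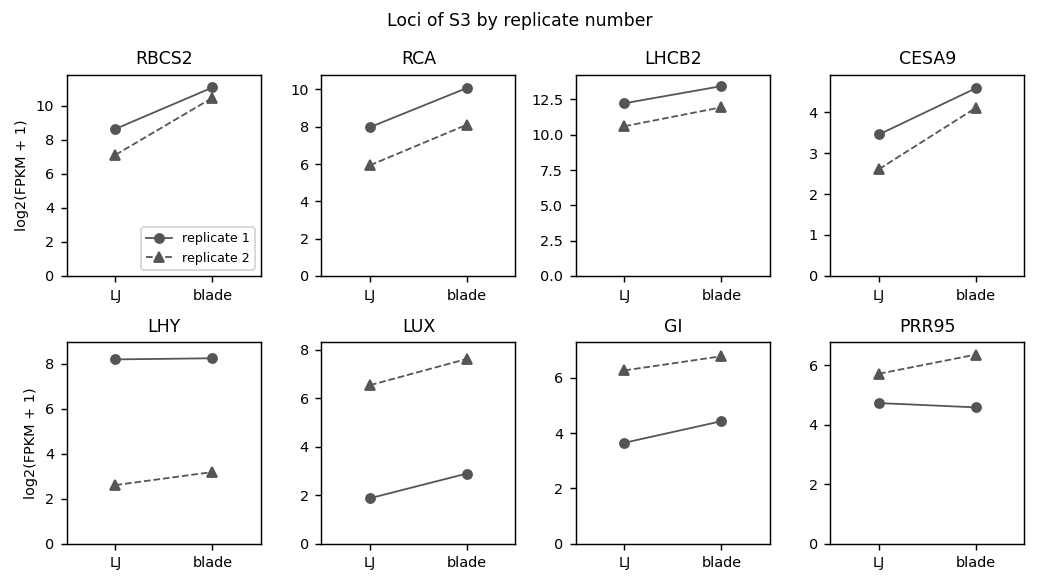
Levels in log2(FPKM + 1) of 8 loci in LJ and blade at S3, with a solid line for the pair of replicates numbered 1 and a dashed line for those numbered 2. RBCS2, RCA, LHCB2 and CESA9 are lower in LJ than in blade within each number, whereas LHY at 291 and 302 FPKM in replicate 1 and 5.09 and 8.10 in replicate 2 is split by number and not by tissue.

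Of 9 loci of brassinosteroid synthesis and inactivation none was called higher and 2 were called lower in LJ, beside 5.77% lower over all tested genes, and both are hydroxylases of the synthesis pathway. DWARF4 was at 0.546 and 0.275 FPKM in LJ, against 6.93 and 1.94 in blade (adjusted p = 0.034), and D2 at 2.86 and 3.50 against 6.59 and 7.86 (adjusted p = 0.047). Both calls depended on single libraries: that of DWARF4 was lost without either LJ library (adjusted p = 0.075 and 0.19) or replicate 1 of blade (0.34) and that of D2 without any 1 library (0.14 to 0.16). CYP734A2, an inactivating enzyme, was at 0.607 and 3.42 FPKM against 0.183 and 0.742 (0.89 ± 0.44, adjusted p = 0.18, and 0.014 with pairing). CYP90A3, CYP90A4, D11, BRD1, CYP734A4 and CYP734A6 were not called, and BRD1, the oxidase of a late step, was at 7.90 and 8.44 FPKM in LJ, against 9.02 and 10.0 in blade.

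Of 8 loci of brassinosteroid signalling, 1 was called higher and none lower, beside 11.2% and 5.77% of all tested genes. The called locus was RLA1 (OS05G0389000), an AP2-type transcription factor that promotes the response and leaf angle. RLA1 was at 22.6 and 20.3 FPKM in LJ and 5.92 and 7.93 in blade (1.51 ± 0.33, adjusted p = 0.0063), and its call was lost without replicate 1 of blade. The receptor BRI1 (41.8 and 28.5 against 47.2 and 37.1 FPKM), the transcription factor BZR1 (265 and 176 against 263 and 181) and the G protein subunit D1 (14.3 and 14.4 against 13.1 and 16.4) overlapped between the tissues. The co-receptor BAK1 was at 13.4 and 15.9 FPKM in LJ, against 5.94 and 9.90 in blade (0.84 ± 0.28, adjusted p = 0.056, and 0.023 with pairing). The kinase GSK2, the zinc finger protein LIC and the ubiquitin ligase TUD1 were not called.

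Of 22 auxin loci, 2 were called higher and 1 lower, beside 11.2% and 5.77% of all tested genes. The median was 0.07 and turned to −0.03 after upper quartile scaling. GH3-8, which conjugates auxin to amino acids, was at 11 and 3.26 FPKM in LJ, against 2.03 and 1.08 in blade (1.51 ± 0.42, adjusted p = 0.025). YUCCA1, of auxin synthesis, was at 0.750 and 0.315 FPKM against 2.84 and 1.33 (−0.98 ± 0.28, adjusted p = 0.030). IAA14, an Aux/IAA repressor, was the other called locus, at 80.5 and 65.9 FPKM against 33.3 and 37.8 (1.02 ± 0.29, adjusted p = 0.030). Each of the 3 calls was lost without replicate 1 of blade (adjusted p = 0.067 for GH3-8, 0.31 for YUCCA1 and 0.18 for IAA14). IAA14 also lost it without any other library (0.062 to 0.13), YUCCA1 without replicate 2 of LJ (0.24), and GH3-8 without replicate 1 of LJ (0.21) or replicate 2 of blade (0.12). With pairing 4 of the 22 were higher and 1 lower, the added loci being the Aux/IAA gene IAA31 (87.0 and 84.5 against 47.6 and 54.9 FPKM, adjusted p = 0.098, and 0.037 with pairing) and TAA1, of auxin synthesis (17.8 and 19.3 against 10.1 and 11.8 FPKM, 0.10, and 0.013 with pairing).

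Of 9 gibberellin loci, 2 were called higher and 1 lower, beside 11.2% and 5.77% of all tested genes. KAO (OS06G0110000), the kaurenoic acid oxidase of gibberellin synthesis, was at 3.79 and 2.88 FPKM in LJ, against 23.1 and 18.4 in blade (−2.33 ± 0.46, adjusted p = 0.0036). KO2, the kaurene oxidase of the preceding step, was higher in LJ, at 22.0 and 20.6 FPKM against 7.52 and 9.30 (1.25 ± 0.29, adjusted p = 0.0098), as was EUI1, which inactivates gibberellins, at 4.29 and 2.09 against 1.19 and 0.825 (1.02 ± 0.29, adjusted p = 0.028). Consecutive enzymes of the pathway thus had opposite orders. KO2 was not called without replicate 2 of LJ (adjusted p = 0.063) or replicate 1 of blade (0.10), and EUI1 not without replicate 1 of LJ (0.20), replicate 1 of blade (0.090) or replicate 2 of blade (0.12), nor after either scaling. The receptor GID1, its F-box partner GID2, the DELLA repressor SLR1, and the synthesis genes CPS1, KS1 and GA20ox2 were not called, and SLR1 was at 152 and 174 FPKM in LJ and 116 in both blade libraries.

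Of 22 loci of cytokinin, strigolactone, abscisic acid and jasmonate, D17 alone was called, lower in LJ, beside 5.77% lower over all tested genes. D17, a carotenoid cleavage dioxygenase of strigolactone synthesis, was at 1.67 and 1.04 FPKM in LJ, against 6.66 and 2.79 in blade (−1.21 ± 0.29, adjusted p = 0.012, but 0.13 without replicate 2 of LJ and 0.18 without replicate 1 of blade). With pairing 3 of the 22 were higher, namely COI1a, RR1 and AOS1 (paired adjusted p = 0.022, 0.036 and 0.038), and 3 lower, D17 and also CKX2 and LOG (0.037 and 0.047). The silicon transporters LSI1 (0.445 and 0.0556 against 0.467 and 0.0719 FPKM) and LSI6 were not called (0 of 2 at an unadjusted p under 0.05), and neither were the 3 tested KNOX genes OSH1, OSH15 and OSH71 (0 of 3).

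The difference between the tissues at S3 was then set against its mean over S1, S2, S4 and S5 in the same fit. By this test 2.46% of all tested genes had a more positive difference at S3 (650 genes) and 1.70% a more negative one (448 genes), 4.16% or 1098 genes in all, of which 890 were also called at S3. Among the named loci, 14 were more positive at S3 and 3 more negative. The count over all genes was 368 without replicate 2 of LJ at S3 and 322 without replicate 1 of blade at S3, and 2880 with pairing. The levels at the other stages come from other libraries, but those libraries also set the spread behind the calls at S3. Of the 42 loci higher in LJ at S3, 37 had a mean difference above 0 over the other 4 stages. Of the 15 lower ones 11 had a mean below 0. These counts cover only named loci, which were chosen with earlier results of these data known. The same share over all called genes is not given, so the counts cannot be set against it.

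BU1 and CYCU4;1 shared a course in which the order of the tissues turned. BU1 went in LJ from 0.654 and 0.974 FPKM at S1 through 5.75 and 3.82 at S2 to its level at S3. It then stood at 0.883 and 1.15 at S4. In blade it was at 8.05 and 9.18 at S1, at 15.3 and 12.8 at S2, and at 0.204 and 0.187 at S4, below LJ there. Its difference at S3 exceeded the mean of the other stages by 2.25 ± 0.26 (adjusted p = 0.00040). CYCU4;1 exceeded it by 2.21 ± 0.30 (adjusted p = 0.00092). At S5 CYCU4;1 was again higher in LJ, at 3.58 and 3.33 FPKM against 0.364 and 0.249 in blade. The excess is over a mean that includes S1 and S2, where LJ lay below blade, and not over each stage. At S1 CYCU4;1 was at 3.04 and 3.96 FPKM in LJ, against 52.7 and 57.2 in blade. KRP1 took the same form, from 3.08 and 4.77 FPKM in LJ at S1 against 54.2 and 65.5 in blade to the higher level in LJ at S3, an excess of 2.14 ± 0.33 (adjusted p = 0.0021). At each of these 3 loci the highest LJ level of the 5 stages was that of S3.

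The mitotic gene CYCB1;1 had another form, with the highest levels at S1 in both tissues and lower ones in blade than in LJ at S2 and S3. In blade it went from 85.7 and 74.9 FPKM at S1 through 33.0 and 38.9 at S2 to 1.85 and 2.70 at S3, and in LJ from 130 and 106 through 98.7 and 75.5 to 22.9 and 29.1. By S4 it was at 2.17 and 4.05 FPKM in LJ, against 0.252 and 0.203 in blade. At such levels the log2(FPKM + 1) scale understates the difference. With a pseudocount of 0.1 the test of S3 against the other stages called 442 genes, not 1098, and its outcome by locus is not given here. With a pseudocount of 1 the difference of CYCB1;1 at S3 exceeded the mean of the other stages by 2.03 ± 0.29 (adjusted p = 0.0014). Those of CYCB2;2, CDKB2;1 and CDKB1;1 did so by 1.99 ± 0.31, 1.68 ± 0.44 and 1.64 ± 0.33 (adjusted p = 0.0024, 0.046 and 0.012). GRF10 (2.52 ± 0.50, adjusted p = 0.011) and GRF6 (1.49 ± 0.36, adjusted p = 0.030) also passed this test, GRF10 standing in blade at 107 and 83.0 FPKM at S1 and at 26.6 and 75.6 at S2. The mitotic cyclin CYCB2;1 (1.29, adjusted p = 0.057), PCNA (2.22, adjusted p = 0.073) and the 6 MCM subunits (0.66 to 1.21, adjusted p = 0.082 to 0.39) did not pass this test, and neither did LG1 (−0.06, adjusted p = 0.98) or RBCS2 (−0.05, adjusted p = 1.0).

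HB5 was the locus with the largest negative value, −2.55 ± 0.24 (adjusted p = 9.7e-05). It was at 1.68 and 1.24 FPKM in blade and 2.1 and 2.83 in LJ at S1, and at S3 the blade stood at its highest and LJ under 0.3. D17, with −1.33 ± 0.33 (adjusted p = 0.035), likewise had its highest blade level at S3, having been at 0.485 and 0.561 FPKM there at S2. TOB1 exceeded the mean of the other stages by 1.43 ± 0.28 (adjusted p = 0.010), although LJ was the higher tissue at each stage. It was at 127 and 125 FPKM against 12.2 and 8.94 at S1, and at 75.5 and 125 against 4.32 and 5.66 at S2. At S4 and S5 it was under 1 FPKM in LJ and listed at 0 in blade. The excess of TOB1 is over a mean that includes these low stages, and not over S1 and S2.

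**Figure D5:**
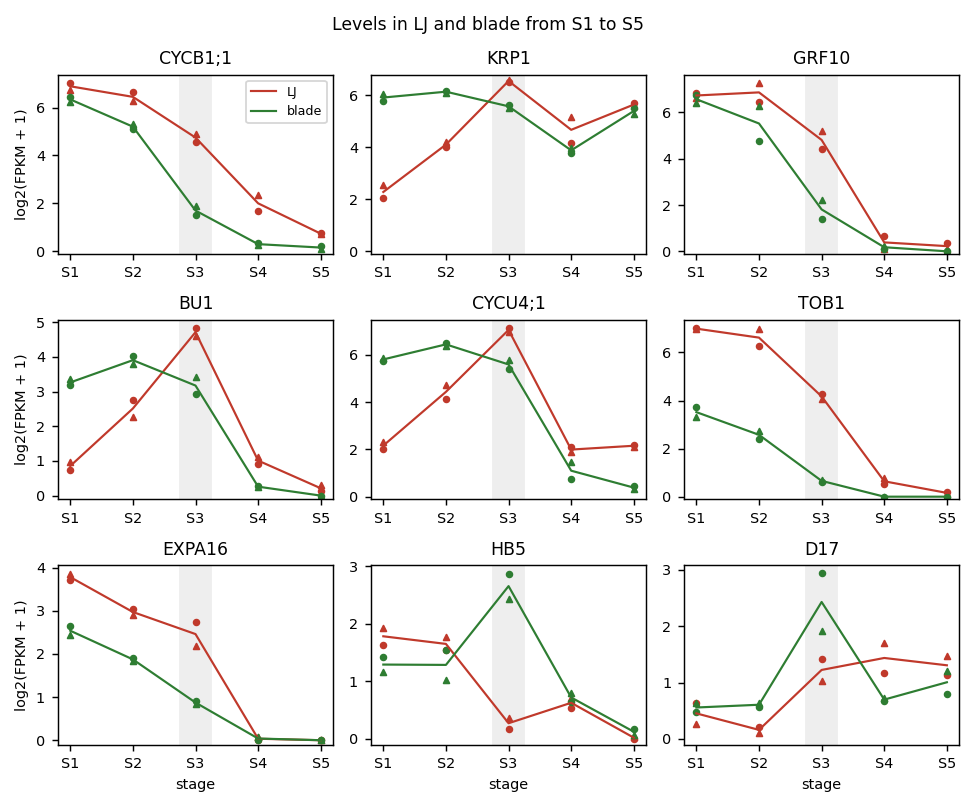
Levels in log2(FPKM + 1) of 9 loci in LJ and blade from S1 to S5, with circles for replicate 1, triangles for replicate 2, lines through group means and S3 shaded. BU1, CYCU4;1 and KRP1 are lower in LJ than in blade at S1 and higher at S3, whereas CYCB1;1 and TOB1 are higher in LJ at both.

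At either extreme of the called genes, the top 2 IDs are given without a name, since the tables used here pair none with them. OS01G0822900 was at 1143 and 1234 FPKM in LJ, against 22.1 and 32.5 in blade (5.42 ± 0.64, adjusted p = 0.00011), and OS09G0360500 at 89.5 and 71.8 against 1.15 and 1.1 (5.26 ± 0.52, adjusted p = 3.8e-05). OS06G0317600 was at 13.9 and 0.491 FPKM in LJ, against 493 and 366 in blade (−6.50 ± 0.86, adjusted p = 0.00027). OS03G0191050 was listed at 0 in both LJ libraries and at 1084 and 3717 FPKM in blade (−10.97 ± 3.32, adjusted p = 0.036). The first 2 were also high in LJ at S1, at a mean of 1314 and 25.9 FPKM, and OS01G0822900 was at 1150 FPKM in blade there. OS03G0191050 was listed at 0 in both tissues at S1 as well. At S5 it had the opposite order, with a mean of 117 FPKM in LJ and 0 in blade.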

How the data were processed

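RNA-seq libraries of total RNA were made with an NEBNext Ultra kit, per the labels' protocols. The sources used here do not say whether libraries were stranded, so reads of overlapping or antisense genes cannot be told apart. The deposited values are FPKM made by the authors, with Cufflinks 2.2.1, TopHat2 2.1.1, Trimmomatic 0.36, CASAVA 1.8 and the build IRGSP-1.0 named in the submitters' processing notes. FPKM keep no read counts, so no counting intervals are given. Each file lists 82632 features, of which the 37829 rice gene IDs were used, and a gene was tested if 2 or more of the 20 libraries held it at 1 FPKM or above.

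The log2(FPKM + 1) values of all 20 libraries in 10 groups of tissue and stage were fitted with limma 3.58.1 in R 4.3.3 with a mean-variance trend (10 residual and 4.09 prior degrees of freedom). The procedure was tested on simulated data. Groups and replicate numbers come from the sample titles. The labels do not say what a number shares. Across genes, the replicate difference in LJ correlated with that in blade at 0.662 at S3 and at 0.213 to 0.774 over the 5 stages, above 0.1 at each. LJ and blade libraries of a stage with the same number were therefore read as pairs in an alternative fit. The main fit and the fits with 1 library left out do not use these pairs. The fit with these pairs as a replicate block is given where it changes a call.

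The members and the 22 lists were chosen with earlier results of these data known, and the symbol of each ID came from background knowledge. Of 313 pairs of symbol and ID, 215 were kept because RefSeq (assembly ASM3414082v1) has the symbol or a synonym on the same chromosome within 1.5% of the gene order (median difference 0.317%). Of the 98 others, 87 had no RefSeq entry of that symbol, 9 were contradicted and 2 were not in the files used. Most loci first listed for secondary walls, lignin, light harvesting and the Calvin cycle were dropped this way, so these lists cover only part of each pathway. Of 39387 RefSeq entries 1 carries an ID like those in the files, so this is the only check of a name. Lists of up to 12 tested loci are named whole, though not every member is given with its values. In longer lists the rule names the called loci with the largest rise and fall, and further loci were chosen after their values were seen. The alternatives tried were upper quartile scaling, quantile normalization, a pseudocount of 0.1, testing all genes, a minimum of 5 FPKM, the replicate block, only the groups compared, and each library left out in turn, in which case the library left alone was taken to spread as other groups do. Differences within a replicate number were added after seeing the data. No sequences or coordinates were used here.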

Additional observations from a re-analysis of the deposited data

Results flagged for a closer look

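For 17 named loci the difference between LJ and blade at S3 departed from the mean of the differences at the other 4 stages by limma's test of that contrast, adjusted over all tested genes. The values below are those departures on the log2(FPKM + 1) scale, which understates differences at stages where a gene is low. A departure from this mean need not be a departure from each other stage. The positive ones were 2.52 for GRF10, 2.25 for BU1, 2.21 for CYCU4;1, 2.14 for KRP1, 2.03 for CYCB1;1, 1.99 for CYCB2;2, 1.68 for CDKB2;1, 1.64 for CDKB1;1, 1.58 for TIP2;2, 1.49 for GRF6, 1.43 for TOB1, 1.26 for EUI1, 1.15 for CIN2 and 1.00 for EXPA16. The negative ones were −2.55 for HB5, −1.33 for D17 and −1.05 for GH3-2.

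GH3-2 and TIP2;2 were not called at S3 itself. GH3-2, an auxin-conjugating enzyme, was at 0.648 and 0.0178 FPKM in LJ and 0.718 and 0.163 in blade at S3, but at 4.71 and 4.96 against 0.450 and 0.0513 at S4. TIP2;2, a vacuolar water channel, was at 1689 and 1974 FPKM in LJ and 920 and 1606 in blade at S3 (adjusted p = 0.30, and 0.040 with pairing), and at 70.4 and 129 against 578 and 848 at S1.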

How the results depend on the processing

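The count of 4471 genes at S3 became 9777 with the replicate block, 974 with only the groups compared, and 1406 to 3835 when 1 library of S3 was left out. The count of 1098 genes for S3 against the other stages became 442 with a pseudocount of 0.1, 2880 with the replicate block, and 322 to 1250 when 1 of the 20 libraries was left out. The cause of these shifts was not tested, except that fitting fewer libraries leaves fewer degrees of freedom. No named locus that was called changed sign under an alternative. Of the 57 called loci, 17 were called under every alternative that kept them (BOP2, TOB1, YAB2, YAB4, CDKB1;1, CDKB2;1, CYCB1;1, CYCB2;1, CYCB2;2, MCM3, MCM6, KAO, EXPA1, HB5, CSLD4, CIN2 and GLO1), and 38 lost their call with only the groups compared. The pairing ended no call of a named locus and added 44. A pseudocount of 0.1 ended the calls of GH3-8, IAA14, D2 and EUI1, and testing without a filter those of D2, DWARF4, FBP1 and CESA3. Upper quartile scaling ended those of KRP1, IAA14, EUI1 and SSI, and quantile normalization those of KRP1, GH3-8, EUI1, WOX4 and SSI. FPKM keep no depth, so levels under about 1 FPKM rest on an unknown number of reads.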
